A study of Mus musculus with 16 samples.

Results

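The genes of mitosis and of DNA replication were followed in sorted mouse microglia, as 44 genes listed by name out of a table of 53850 genes, a list made with earlier results of these data known. They comprise 24 genes of mitosis, 18 genes of replication, and Hmgb2 and Stmn1, a chromatin protein and a tubulin-binding protein that are abundant in dividing cells but belong to neither process. Microglia, the resident macrophages of the brain, had been sorted by flow cytometry from the cortex of young C57BL/6J mice. The mice had eaten chow with PLX3397, or control chow, for 1 week. PLX3397 inhibits the receptor of the growth factor CSF1, on which microglia depend for survival and division. The 4 groups were females on PLX3397, females on control chow, males on PLX3397 and males on control chow, with 4 libraries each, and all mice were of the same strain with no engineered allele named. The sources used here give neither the sorting gate, the dose nor the age in days. Nor do they state if each of the 4 libraries came from its own animal or from pooled animals, so the p-values measure only the spread between these samples. The study asked why depletion by PLX3397 differs between the sexes.

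Before a cell divides it copies its DNA in S phase. The MCM proteins form the helicase that Cdc6 and Cdt1 load at origins, Cdc45 and the GINS complex activate it, Pcna clamps the polymerases to DNA, and ribonucleotide reductase (Rrm1 with Rrm2), Tyms and Tk1 supply nucleotides. Mitosis follows under Cdk1 with its cyclins and under the kinases Plk1, Aurka and Aurkb. Transcription of replication genes is driven largely by E2F factors. That of mitosis genes is driven by the MuvB complex with B-Myb and FoxM1 through the cell cycle genes homology region. CCAAT boxes are a separate element of these promoters. Microglia of the healthy adult brain divide rarely, and divide widely when the niche is repopulated after depletion.

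The unit is a normalised read count per gene, and the libraries summed to between 32641500 and 44162200 of it. The most frequent low value was 0.512 to 1.88 per library and was taken as about 1 read, which gives an estimated 22228200 to 79271400 reads per library. Some values lay below it, such as 0.469 for Nusap1 in female PLX3397 replicate 1, against 0.577 there, so read numbers are approximate. On that scale 3 reads correspond to a value of 1.54 to 5.63. Csf1r, Cx3cr1, P2ry12 and Tmem119, listed here as microglia markers, were present in all 16 libraries. Among T and NK cell markers Cd3e was at 0 in all, while Cd3d was above 0 in all at 24.7 to 67.6, and Nkg7 and Klrb1c reached 67.6 and 41.7 in libraries on PLX3397 and were at 0 on control chow. Male control replicate 4 stood apart with 516 of Xist, against 14.7 to 31.4 in the other male libraries and 5542 to 10451 in females. Male PLX3397 replicate 3 stood apart with the highest sum of neutrophil markers, 70179. For males and for the difference between responses, the members called are also given without both of these libraries. In bulk RNA of sorted cells, fewer dividing cells and less of a transcript per cell cannot be told apart.

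Replication genes were far more abundant in these microglia than mitosis genes. Per kilobase of the longest protein-coding transcript, the median level over the 16 libraries was 143 normalised counts for the 18 replication genes, against 18.3 for the 24 mitosis genes. Among replication genes the level per kilobase reached 1116 for Pcna, the sliding clamp, and 904 for Mcm3, a helicase subunit, and it was lowest for Cdc6, the helicase loader, at 4.38. Among mitosis genes the level per kilobase reached 84.5 for Cdc20, an activator of the anaphase-promoting complex, followed by 41.2 for Birc5, a subunit of the chromosomal passenger complex. Hmgb2 had 492 and Stmn1 had 1044 normalised counts per kilobase. Bub1, a kinase of the spindle checkpoint, was near 0, with 5.001 in male control replicate 1 and 0 in the other 15 libraries. It was the one member that failed the filter of at least 10 in at least 4 libraries, so 43 of the 44 were tested.

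**Figure D1:**
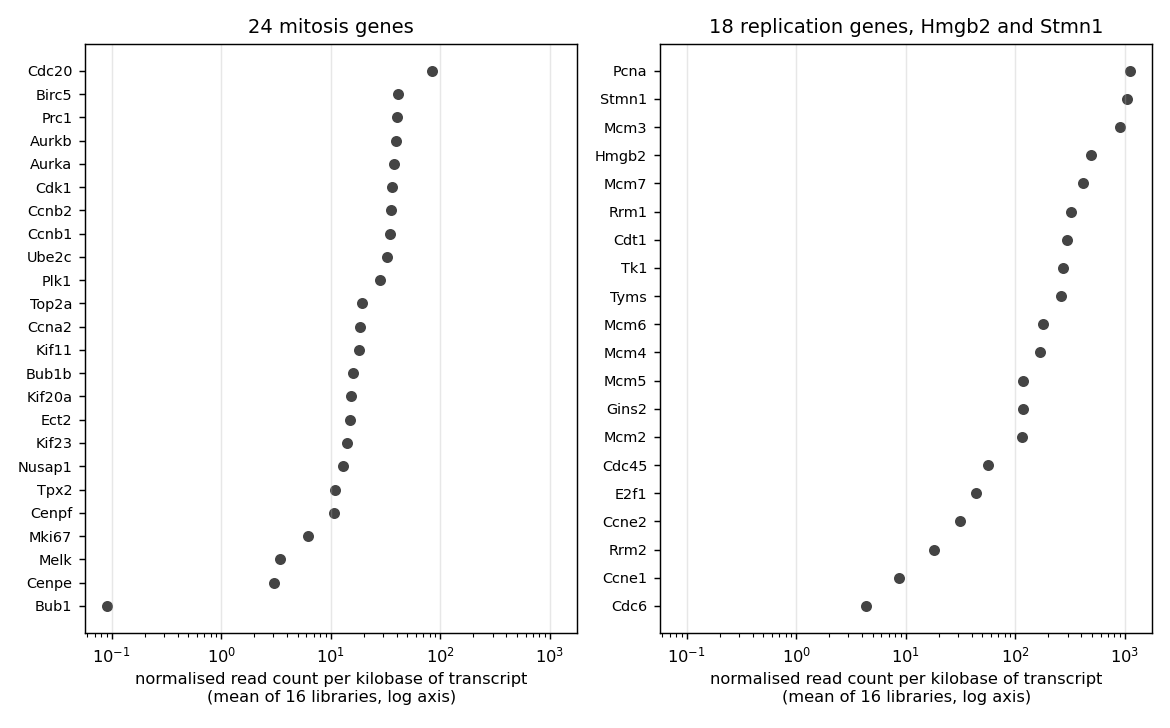
Mean normalised read count per kilobase of transcript over 16 libraries (log axis), 1 point per gene, for the mitosis genes (left panel) and for the replication genes with Hmgb2 and Stmn1 (right panel). Mitosis genes run from 0.0914 for Bub1 to 84.5 for Cdc20, and replication genes from 4.38 for Cdc6 to 1116 for Pcna.

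The low members were also the uneven ones. In total 29 members were above 0 in all 16 libraries, comprising 12 mitosis genes, 15 replication genes, Hmgb2 and Stmn1. Melk, a kinase of dividing cells, and Cdc6 were each at 0 in 9 libraries. Cenpe, a kinetochore motor, and Rrm2 were at 0 in 6 each, and Ccne1, a cyclin of S phase entry, in 5. The SD within groups, on the log2(value + 1) scale, had a median of 1.26 over the mitosis genes tested, 0.54 over the replication genes and 0.40 over all 19594 genes tested.

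Promoters are given for the members whose values are described most closely. In the RefSeq table of build GRCm38.p6, 36 members had an entry, and Mcm4, Gins2, Ccna2, Stmn1, Ccne2, Kif20a, Aurkb and Tpx2 had none. Windows of 300 bases, from 250 before to 50 after the start, were searched on both strands for the letters CCAAT (the CCAAT box), TTTGAA (the cell cycle genes homology region) and the E2F sites, spelled TTCCCGC in one form, with TTCGCGC as another, then TTGCCGC as well as the form TTGGCGC. The homology region was found in 14 of 20 mitosis genes (70%), 2 of 15 replication genes (13.3%) and 20.2% of the 27025 genes of the table. A CCAAT box was found in 17 of 20 mitosis genes (85%), 9 of 15 replication genes (60%) and 41.1% of all genes. An E2F site was found in 4 of 20 mitosis genes (20%), 8 of 15 replication genes (53.3%) and 10.9% of all genes. Matches of different motifs overlapped 5 times in the members' windows, and a match is a description of letters, not a site shown to be bound.

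The 4 mitosis genes and the 3 replication genes below carry the results that follow, and each stretch runs from 200 bases before to 30 after the start, 5′ to 3′ on the gene's strand, with motif matches in capitals.
Plk1, chr7:122159235-122159464, plus strand: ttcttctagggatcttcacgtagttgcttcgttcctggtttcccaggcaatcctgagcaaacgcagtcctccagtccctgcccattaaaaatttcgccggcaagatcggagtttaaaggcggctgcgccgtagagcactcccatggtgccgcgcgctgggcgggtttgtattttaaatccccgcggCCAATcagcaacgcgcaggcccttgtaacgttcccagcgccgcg
Ccnb2, chr9:70421525-70421754, minus strand: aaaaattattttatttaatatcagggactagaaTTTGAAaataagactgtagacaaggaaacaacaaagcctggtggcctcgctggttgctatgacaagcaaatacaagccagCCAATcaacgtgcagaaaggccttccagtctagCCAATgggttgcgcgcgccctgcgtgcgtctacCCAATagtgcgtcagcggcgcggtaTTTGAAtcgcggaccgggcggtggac
Mki67, chr7:135716350-135716579, minus strand: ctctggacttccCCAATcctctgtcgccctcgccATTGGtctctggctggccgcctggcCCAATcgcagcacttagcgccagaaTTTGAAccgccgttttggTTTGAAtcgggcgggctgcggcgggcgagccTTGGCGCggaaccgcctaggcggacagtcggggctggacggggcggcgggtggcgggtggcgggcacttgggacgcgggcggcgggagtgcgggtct
Cdk1, chr10:69352883-69353112, minus strand: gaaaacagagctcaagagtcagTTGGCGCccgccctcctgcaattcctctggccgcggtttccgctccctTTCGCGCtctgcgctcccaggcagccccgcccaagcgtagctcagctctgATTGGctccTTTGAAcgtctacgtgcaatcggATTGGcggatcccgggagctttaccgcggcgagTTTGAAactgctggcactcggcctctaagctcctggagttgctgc
Rrm2, chr12:24708054-24708283, plus strand: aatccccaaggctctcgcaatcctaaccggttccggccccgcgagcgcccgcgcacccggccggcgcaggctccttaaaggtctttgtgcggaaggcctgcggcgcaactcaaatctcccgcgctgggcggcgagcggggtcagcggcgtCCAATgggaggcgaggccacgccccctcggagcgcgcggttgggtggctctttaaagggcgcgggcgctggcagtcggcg
Pcna, chr2:132253151-132253380, minus strand: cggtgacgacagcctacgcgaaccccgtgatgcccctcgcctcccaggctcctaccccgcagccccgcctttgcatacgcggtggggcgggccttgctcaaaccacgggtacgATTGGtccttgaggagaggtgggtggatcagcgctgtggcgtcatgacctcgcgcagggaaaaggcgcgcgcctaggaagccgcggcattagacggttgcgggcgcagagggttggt
Mcm3, chr1:20820283-20820512, minus strand: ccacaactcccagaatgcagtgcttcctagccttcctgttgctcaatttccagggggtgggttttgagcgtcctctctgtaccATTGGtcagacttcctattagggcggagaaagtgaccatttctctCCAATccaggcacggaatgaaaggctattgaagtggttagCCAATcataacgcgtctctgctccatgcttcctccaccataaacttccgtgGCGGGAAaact
Ccnb2, Mki67 and Cdk1 each hold 2 matches of TTTGAA beside CCAAT boxes. The match of TTTGAA in Plk1 begins 30 bases after the start and lies just beyond the stretch shown. Rrm2, Pcna and Mcm3 hold CCAAT boxes and no TTTGAA in the window searched. E2F matches do not divide these genes in that way. In that window Cdk1 holds 2, Mki67 holds 1, and Mcm3 holds 3 with 1 in the stretch shown. Rrm2 holds 1 that lies before its stretch, and Plk1, Ccnb2 and Pcna hold none.

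In females, 4 members fell on PLX3397, of which 3 act in mitosis and 1 in replication. Of the 23 mitosis genes tested, 3 fell (Plk1, Ccnb2 and Tpx2), none rose, and 20 did not pass the test. Of the 18 replication genes, Rrm2 fell, none rose and 17 did not pass. Together 9.30% of the 43 members were called in females, all lower, against 5.34% of all genes called in either direction and 2.67% called lower (limma on log2(value + 1), Benjamini-Hochberg adjusted p under 0.05 over 19594 genes). The fold change was below 0 for 22 of the 23 mitosis genes, with a median log2 fold change of -1.60, and for 8 of the 18 replication genes, with a median of 0.13. The median over all genes tested was -0.0032. At an unadjusted p under 0.05, 8 mitosis genes were lower and none higher, while 1 replication gene was lower and 3 were higher, against 17.1% of all genes in either direction. With voom weights, which give low values less weight, 0 members were called in females. The difference between mitosis and replication genes was not tested. Without male PLX3397 replicate 3, female PLX3397 replicate 2 or 3, or female control replicate 1 or 2, the members called were 2, Plk1 and Ccnb2. Depth differed between libraries: estimated reads ran from 22228200 to 72058600 in females on PLX3397 and from 29397900 to 38796700 in female controls, so 3 reads stood for a value of at most 5.63.

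Plk1, the kinase that drives spindle assembly and mitotic entry, was close to absent in females on PLX3397. It had 0, 0, 0 and 1.03 normalised counts in females on PLX3397 and 95.6, 92.9, 128 and 142 in females on control chow. These values stand for about 0.0 to 1.0 reads per library in females on PLX3397 and 64.7 to 129.5 in female controls. The groups did not overlap, and the log2 fold change was -6.57 ± 0.90 (SE; limma adjusted p = 0.000274). A fold against values near 0 depends on the constant added before the logarithm, and it ran from -7.42 to -4.49 on the log2 scale over 28 alternative settings. Plk1 was called in 27 of them, with each library left out in turn among them, and not with voom weights, which give low values less weight (limma adjusted p = 0.212).

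Ccnb2, a B-type cyclin that activates Cdk1, had 13.6, 0, 15.0 and 1.06 normalised counts in females on PLX3397 and 143, 48.3, 135 and 71.0 in females on control chow. All 4 female control libraries were higher than any on PLX3397, and the log2 fold change was -4.29 ± 0.81 (SE; limma adjusted p = 0.00377, or 0.0731 with voom weights). The value is uncertain because the pseudogene Ccnb2-ps, at a mean of 125 over the 16 libraries, could take reads of Ccnb2. Ccnb2-ps had 46.3, 92.2, 220 and 96.6 in females on PLX3397 and 156, 158, 113 and 97.2 in females on control chow, with overlapping groups (limma log2 fold change -0.39 ± 0.40, adjusted p = 0.707). The sum of both rows was 59.9, 92.2, 235 and 97.6 in females on PLX3397 and 300, 206, 248 and 168 in female controls, so the summed groups overlapped through replicate 3 of the PLX3397 group.

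Tpx2, which targets Aurka to the spindle, had 11.0, 0, 4.50 and 11.0 normalised counts in females on PLX3397 and 157, 114, 43.4 and 10.3 in females on control chow. Female control replicate 4 lay inside the range of the PLX3397 group, so the groups overlapped. The log2 fold change was -3.37 ± 0.93 (SE; limma adjusted p = 0.0450). The call rests on single libraries: it was kept in 12 of 28 alternatives, and it ended without any 1 of 10 libraries (male PLX3397 replicates 2 and 3, male control replicates 1, 2 and 4, female PLX3397 replicates 2 and 3, and female control replicates 1, 2 and 3), at limma adjusted p between 0.0541 and 0.143.

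Mki67, the proliferation marker that coats mitotic chromosomes, had 0, 4.37, 0 and 0 normalised counts in females on PLX3397 and 46.9, 22.2, 0 and 38.3 in females on control chow. Female control replicate 3 was also at 0, and the difference did not pass the test (limma log2 fold change -3.25 ± 1.10, adjusted p = 0.114). Cdk1, the master kinase of mitosis, had 87.7, 49.98, 66.7 and 70.3 in females on PLX3397 and 418, 160, 207 and 128 in female controls. Its groups did not overlap, yet the test was not passed (limma log2 fold change -1.60 ± 0.53, adjusted p = 0.0997). Cdk1 was called where male control replicate 2, its lowest male library, was left out of the shared estimate of spread (limma adjusted p = 0.0119), and in a fit to the groups compared alone (0.0470).

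Other mitosis genes leaned the same way in females without passing. Log2 fold changes by limma were -1.84 for Aurka, a spindle pole kinase (adjusted p = 0.234), -1.57 for Ccnb1, another B-type cyclin (0.211), and -1.39 for Top2a, the topoisomerase that untangles sister DNA (0.244). Melk was at 0 in all 4 females on PLX3397, against 4.46, 8.69, 0 and 28.2 in female controls. Cdc20 had 337, 85.4, 0 and 123 in females on PLX3397 and 180, 203, 219 and 195 in female controls, with overlap through 1 high library on PLX3397 (limma log2 fold change -2.20 ± 1.19, adjusted p = 0.379). Birc5 had 55.4, 58.8, 144 and 107 in females on PLX3397 and 134, 159, 152 and 154 in female controls (limma log2 fold change -0.82 ± 0.40, adjusted p = 0.309). The 1 mitosis gene above 0 was Ect2, an exchange factor of cytokinesis, at a log2 fold change of 2.44 (limma adjusted p = 0.358). The mitosis genes not named so far (Ccna2, Aurkb, Bub1b, Cenpe, Cenpf, Kif11, Kif20a, Kif23, Nusap1, Prc1 and Ube2c) had log2 fold changes from -2.61 for Aurkb, a kinase of the chromosomal passenger complex, to -0.35 for Cenpf, a kinetochore protein.

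**Figure D2:**
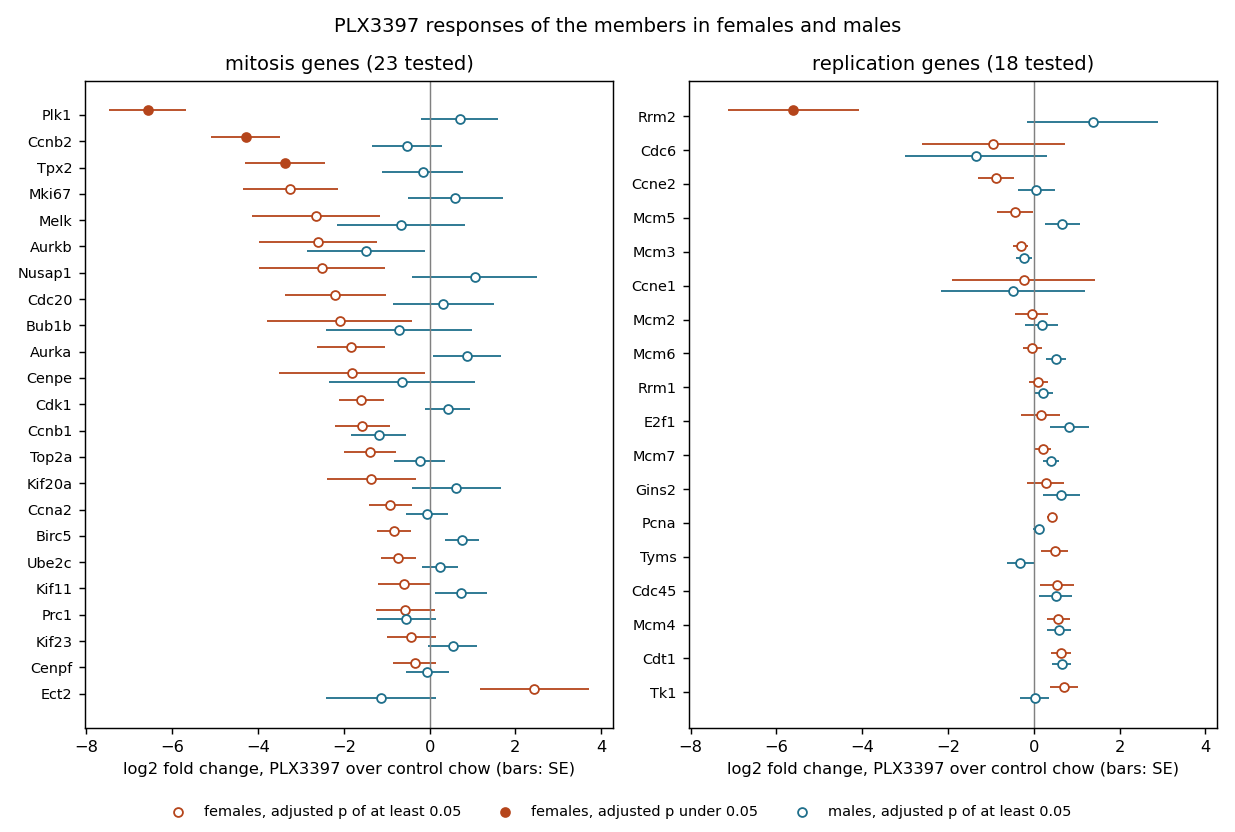
Log2 fold change of PLX3397 over control chow (x axis, limma on log2(value + 1), bars are SE) for each mitosis gene tested (left panel) and each replication gene tested (right panel), with females in red above males in blue and filled points at an adjusted p under 0.05. In females 22 of 23 mitosis genes lie left of 0, with a median of -1.60, while the male median is -0.06.

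No replication gene rose in females on PLX3397, and Rrm2 alone fell. Pcna had 1883, 1939, 2322 and 2219 normalised counts in females on PLX3397 and 1672, 1231, 1733 and 1625 in females on control chow. All 4 PLX3397 libraries were above every female control, but the difference did not pass the test (limma log2 fold change 0.42 ± 0.13, adjusted p = 0.0671). It passed with equal library totals (adjusted p = 0.0435). Mcm3 had 2845, 2137, 3041 and 3179 in females on PLX3397 and 2851, 3397, 3996 and 3530 in female controls, with overlap (limma log2 fold change -0.30 ± 0.18, adjusted p = 0.433). Rrm1, the large subunit of ribonucleotide reductase, had 1103, 1285, 1952 and 1154 in females on PLX3397 and 1490, 1373, 964 and 1194 in female controls, with overlap (limma log2 fold change 0.11 ± 0.22, adjusted p = 0.867). The estimates of Tk1, a thymidine kinase, and Cdt1 were 0.71 and 0.64 on the log2 scale in females (limma adjusted p = 0.285 and 0.145). The replication genes not named singly in females (Tyms, Mcm2, Mcm4, Mcm5, Mcm6, Mcm7, Cdc45, Cdc6, Gins2, Ccne1, Ccne2 and E2f1) ran from -0.95 for Cdc6 to 0.58 for Mcm4 on the log2 scale, and none passed.

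Rrm2, the small subunit of ribonucleotide reductase, was at or near 0 in females on PLX3397. It had 0, 0, 0 and 1.96 normalised counts in females on PLX3397 and 129, 89.3, 38.3 and 35.3 in females on control chow. The groups did not overlap (limma log2 fold change -5.61 ± 1.53, adjusted p = 0.0409, or 0.321 with voom weights). Rrm2 was also at 0 in male PLX3397 replicate 4 and in male control replicates 2 and 3. Its call was kept in 16 of 28 alternatives and ended without any 1 of 8 libraries (male PLX3397 replicate 3, female PLX3397 replicates 1, 2 and 3, and each female control), at limma adjusted p between 0.0517 and 0.110.

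Across the members, groups of females did not overlap for 4 genes lower on PLX3397 (Plk1, Ccnb2, Cdk1 and Rrm2) and 1 higher (Pcna). Among all genes tested 10.4% did not overlap between the female groups, with 5.26% lower and 5.13% higher.

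**Figure D3:**
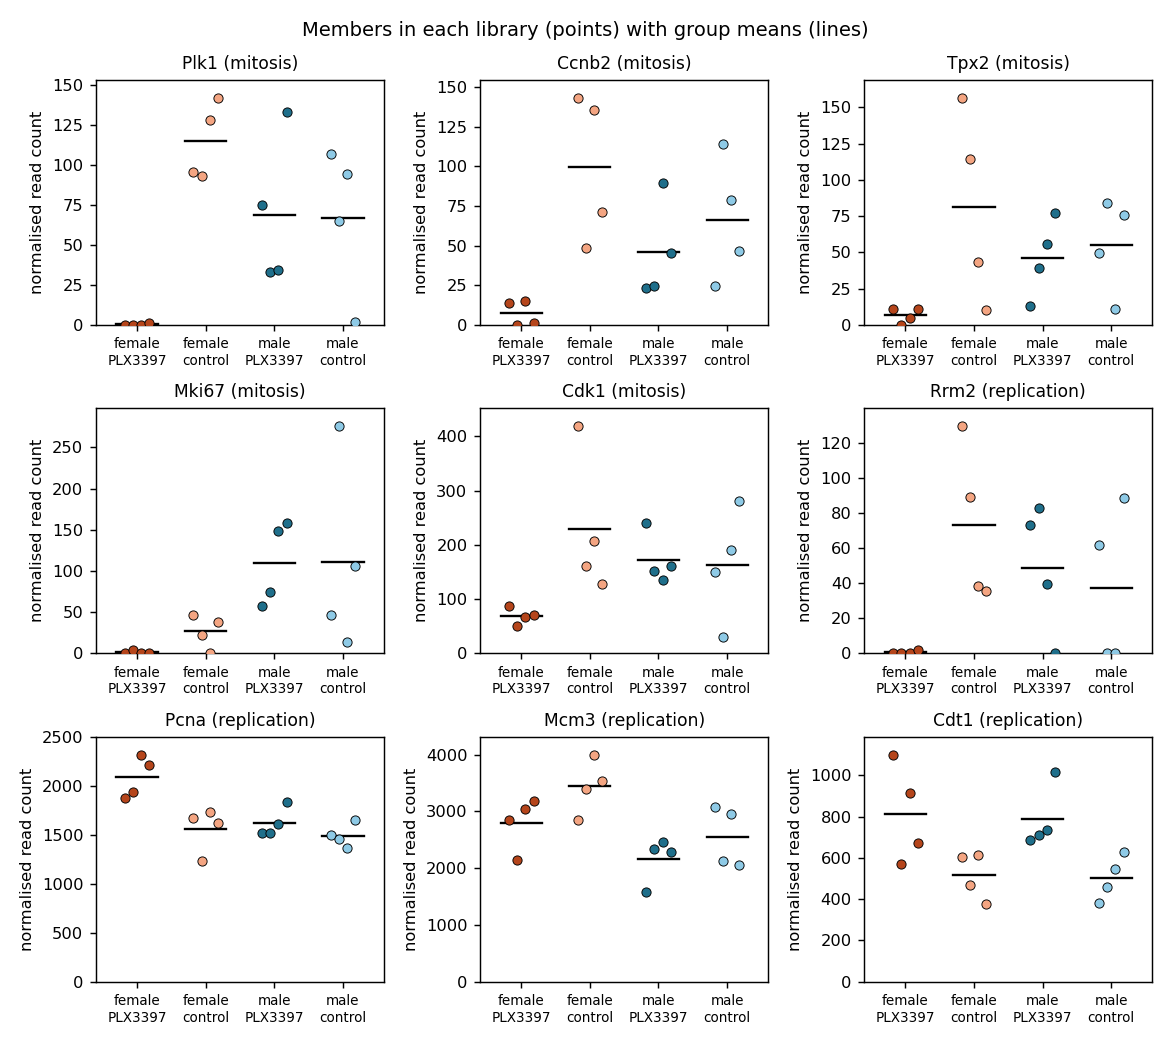
Normalised read count (y axis, from 0) of 9 members in each of the 16 libraries, with 1 point per library and a line at the mean of each group of 4. Plk1 and Rrm2 are at or near 0 in all 4 females on PLX3397, while Pcna is higher there than in every female control.

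In males, no member passed the test. Limma called 0 of 43 members, against 11.7% of all genes (4.16% higher and 7.52% lower), and 4 members had an unadjusted p under 0.05, all of them replication genes and all higher. The background at that unadjusted threshold was 23.8% of all genes, and voom weights also called 0 members. Fold changes of mitosis genes were below 0 for 12 of 23, with a median log2 fold change of -0.06, and those of replication genes were above 0 for 14 of 18, with a median of 0.31. Over the alternatives the male median ran from -0.25 to 0.27 for mitosis genes, so its sign was not stable, and from 0.17 to 0.47 for replication genes. The median over all genes was 0.02. Without male control replicate 4 and male PLX3397 replicate 3 these medians were -0.08 for mitosis and 0.17 for replication genes, and again no member passed.

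Cdt1, which helps load the helicase at origins, was the male member with groups that did not overlap. It had 686, 712, 733 and 1017 normalised counts in males on PLX3397 and 383, 461, 547 and 627 in males on control chow (limma log2 fold change 0.65 ± 0.23, adjusted p = 0.0873). It passed with equal library totals (adjusted p = 0.0292), a scaling that moved the male median of all genes by 0.16 on the log2 scale. Non-overlapping groups of males were seen for 17.6% of all genes, with 7.71% higher and 9.84% lower. The other 3 at an unadjusted p under 0.05 were the helicase subunits Mcm6, Mcm7 and Mcm4, at log2 fold changes of 0.52, 0.39 and 0.59 (limma adjusted p = 0.167, 0.202 and 0.208).

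Of the genes called in females, Plk1 and Tpx2 were above 0 in all 8 male libraries, as was Ccnb2, while Rrm2 was at 0 in 3 of them as given above. Plk1 had 74.7, 32.7, 34.3 and 133 normalised counts in males on PLX3397 and 106, 64.9, 94.0 and 1.58 in males on control chow, with the single low value in male control replicate 4. Ccnb2 had 23.2, 24.8, 89.8 and 45.4 in males on PLX3397 and 24.5, 114, 78.8 and 46.8 in males on control chow. Tpx2 had 13.2, 38.9, 55.9 and 77.0 in males on PLX3397 and 49.9, 83.7, 11.1 and 75.7 in male controls. The male groups overlapped for each of these 4 genes.

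The difference between the responses, females minus males, was tested directly, and no member passed. Limma called 0 of 43 members and 0% of all genes (0 of 19594), while 8 members had an unadjusted p under 0.05, all of them lower, against 10.3% of all genes. Voom weights called 0 as well. That difference was below 0 for 22 of 23 mitosis genes, with a median of -1.39 on the log2 scale, and for 12 of 18 replication genes, with a median of -0.09. The median over all genes was 0.01. Plk1 had the smallest p, with a difference of -7.27 ± 1.27 (SE) on the log2 scale (limma adjusted p = 0.133). Plk1 passed without male control replicate 4, alone or with male PLX3397 replicate 3, as the 1 member called in each of these fits.

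Among mice on PLX3397, the members that differed between the sexes were mitosis genes, lower in females. Of the 43 members 3 were lower in females and none higher, which is 6.98% against 5.43% of all genes called in either direction, with 4.28% higher and 1.15% lower. All 3, Plk1, Mki67 and Ccnb2, are mitosis genes. The fold change was below 0 for 21 of 23 mitosis genes, with a median log2 fold change of -1.08, and for 7 of 18 replication genes, with a median of 0.06, against -0.02 over all genes. Over the alternatives these medians ran from -1.37 to -0.81 for mitosis genes and from -0.14 to 0.15 for replication genes, whose sign was not stable. Males on PLX3397 and females on PLX3397 enter the comparisons within each sex as well, so these results are not independent of those above.

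Mki67 showed the largest of these differences, with 0, 4.37, 0 and 0 normalised counts in females on PLX3397 against 57.0, 73.9, 149 and 158 in males on PLX3397. The groups were far apart (limma log2 fold change -6.05 ± 1.10, adjusted p = 0.00784, or 0.204 with voom weights). In males on control chow Mki67 ranged from 13.1 to 276. Plk1 differed by -5.63 ± 0.90 (SE) on the log2 scale between females and males on PLX3397 (limma adjusted p = 0.00497, or 0.230 with voom weights). Ccnb2 differed by -3.10 ± 0.81 (limma adjusted p = 0.0377, or 0.210 with voom weights). That call ended without male PLX3397 replicate 2, 3 or 4 or female PLX3397 replicate 2 or 4, at adjusted p between 0.0578 and 0.108. Summed with its pseudogene Ccnb2-ps, it had 59.9, 92.2, 235 and 97.6 in females and 191, 203, 187 and 121 in males on PLX3397, so the summed groups overlapped.

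Groups on PLX3397 did not overlap between females and males for 6 members lower in females and 2 higher, against 12.1% of all genes in either direction, 5.36% lower and 6.76% higher. The 6 lower were Mki67, Plk1, Ccnb2, Cdk1, Tpx2 and Ube2c, with Ccnb2 taken without its pseudogene. Ube2c, the ubiquitin-conjugating enzyme of the anaphase-promoting complex, had 41.7, 45.6, 45.5 and 48.3 in females on PLX3397 and 67.1, 49.3, 96.5 and 118 in males on PLX3397 (limma log2 fold change -0.78 ± 0.41, adjusted p = 0.281). Ect2 was higher, with 127, 93.0, 135 and 150 in females on PLX3397 and 0.711, 30.6, 7.53 and 43.2 in males on PLX3397 (limma log2 fold change 3.39 ± 1.28, adjusted p = 0.133). Among the 28 alternatives it passed in 1, where female control replicate 3 was left out of the shared spread (adjusted p = 0.0443). Pcna was the other higher member, with 1517, 1523, 1611 and 1840 in males on PLX3397, all below the 4 values of females on PLX3397 given above (limma log2 fold change 0.36 ± 0.13, adjusted p = 0.108).

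On control chow no member passed the test between females and males. Limma called 0 of 43 members, as did voom weights, against 0.0663% of all genes (0.0153% higher and 0.051% lower in females), and 3 members had an unadjusted p under 0.05, against 5.19% of all genes. Those 3, all higher in females, were the helicase subunits Mcm6, Mcm5 and Mcm3, at log2 fold changes of 0.70, 1.23 and 0.45 (limma adjusted p = 0.833, 0.858 and 0.931). The median log2 fold change was 0.30 over mitosis genes and 0.09 over replication genes, against -0.01 over all genes. Kif20a, a kinesin of cytokinesis, was the member whose control groups did not overlap, with 70.8, 53.3, 99.3 and 63.2 in females and 13.8, 43.98, 43.7 and 8.22 in males (limma log2 fold change 1.63 ± 1.04, adjusted p = 0.976). Among all genes 3.55% did not overlap, with 1.76% higher and 1.8% lower in females.

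Ordered by group mean, the lowest group was females on PLX3397 for 17 of the 23 mitosis genes tested, males on control chow for 4, males on PLX3397 for 2 and females on control chow for 0. The highest group was females on control chow for 11, males on PLX3397 for 6, males on control chow for 5 and females on PLX3397 for 1, which was Ect2. Replication genes had another order, with females on PLX3397 highest for 8 of 18 and males on control chow lowest for 9. Hmgb2 and Stmn1 were both highest in males on PLX3397 and lowest in males on control chow by mean, without a call in any of the 5 comparisons. Hmgb2 had 958, 1156, 1115 and 1690 normalised counts in females on PLX3397, 1806, 828, 1692 and 1130 in female controls, 1666, 975, 1984 and 1056 in males on PLX3397 and 1399, 1181, 748 and 1322 in male controls. Stmn1 had 1035, 851, 1127 and 1152 in females on PLX3397, 1402, 1028, 1324 and 903 in female controls, 1033, 950, 1278 and 1740 in males on PLX3397 and 1076, 1123, 829 and 854 in male controls. The groups of both genes overlapped in every comparison.

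**Figure D4:**
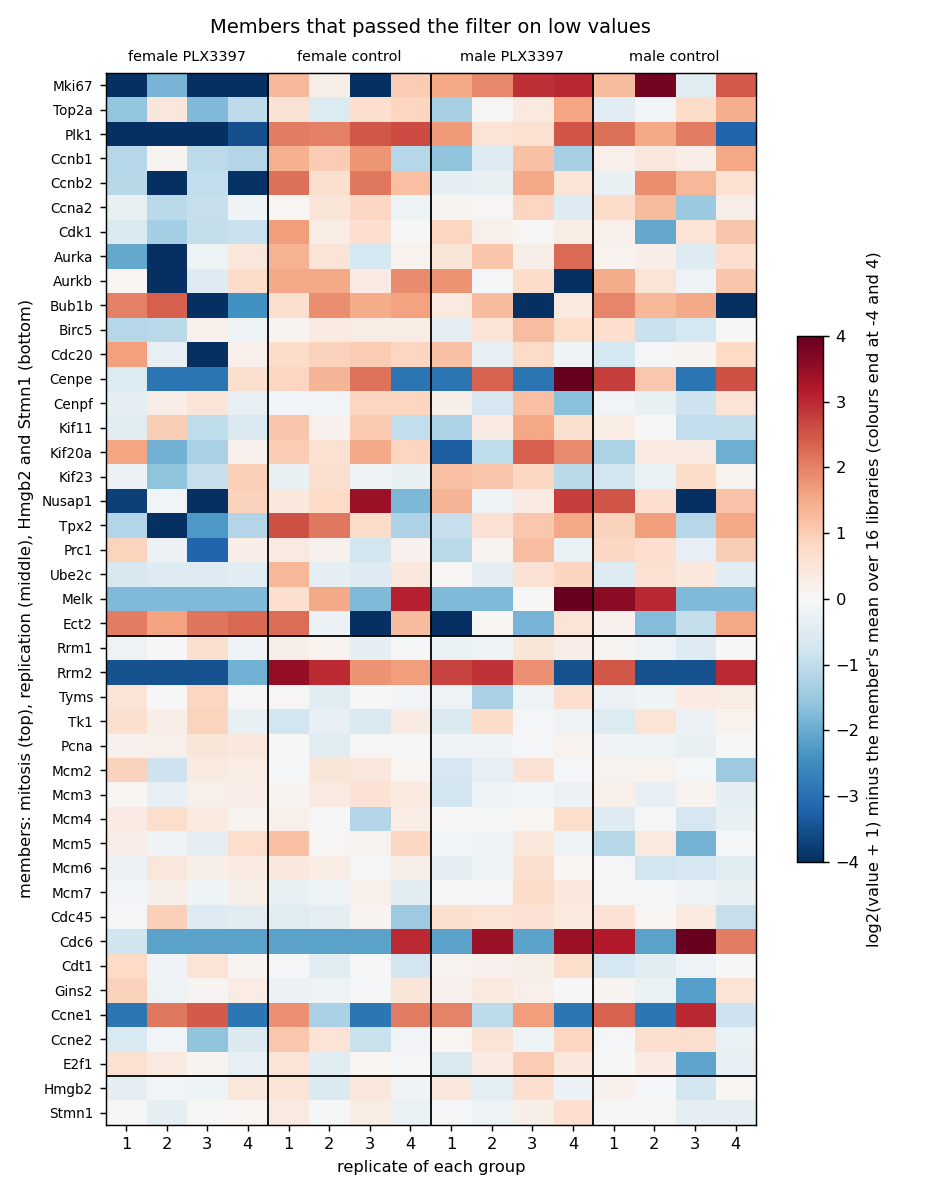
Log2(value + 1) of each of the 43 members tested minus its own mean over the 16 libraries, coloured from blue at -4 to red at 4, with members down the page and the 4 replicates of each group across it. Mitosis genes, above the upper line, are mostly blue in females on PLX3397, with Ect2 as an exception. Replication genes below it show little contrast between groups apart from the low members Rrm2 and Cdc6. Ccne1 varies widely within every group, and Cdc6 does so in all groups but females on PLX3397.

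Summed per library, the 24 mitosis genes gave 1410, 1081, 795 and 1192 normalised counts in females on PLX3397 and 2675, 1906, 2312 and 1899 in females on control chow. Every female library on PLX3397 was below every other library of the study except male control replicate 3, whose sum of 1353 lay below the 1410 of female PLX3397 replicate 1. In males the sum was 1534, 1492, 2509 and 2337 on PLX3397 and 1835, 1796, 1353 and 2149 on control chow. The 18 replication genes summed to between 11878 and 14511 in females on PLX3397, 11486 and 12386 in female controls, 9590 and 13395 in males on PLX3397, and 9993 and 11051 in male controls. Between 3 and 8 mitosis genes were at 0 per library in females on PLX3397, 1 to 4 in female controls, 2 to 3 in males on PLX3397 and 0 to 4 in male controls.

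Markers of microglia and of other cells also differed between the groups. The 8 neutrophil markers (S100a8, S100a9, Ly6g, Retnlg, Mmp9, Ltf, Camp and Ngp) summed to 802 to 3076 in females on PLX3397, 0 to 6.01 in female controls, 9918 to 70179 in males on PLX3397 and 262 to 3194 in male controls. All 8 were called higher on PLX3397 in males, 5 of 8 in females, and 7 of 8 were called lower in females than in males on PLX3397. Of all genes, 4.16% were called higher in males, 2.67% higher in females and 1.15% lower in females than in males on PLX3397. Ly6g, Retnlg and Mmp9 passed the filter only through the males on PLX3397, so the filter favoured their calls in comparisons with that group. S100a8, S100a9, Ly6g, Retnlg and Ltf were at 0 in all 4 female controls. The 6 microglia markers summed to between 1422110 and 1608190 in females on PLX3397, 1797590 and 2219730 in female controls, 888821 and 1246340 in males on PLX3397, and 1930120 and 2088190 in male controls. The 6 markers of border-associated macrophages summed to 830 to 1160 in females on PLX3397, 1383 to 3327 in female controls, 537 to 888 in males on PLX3397 and 1686 to 2638 in male controls. Monocyte markers (5 genes) summed to 237 to 613 in females on PLX3397, 399 to 532 in female controls, 685 to 5863 in males on PLX3397 and 346 to 674 in male controls, with none called within either sex. Between the sexes on PLX3397, Ly6c2 was called lower in females (limma adjusted p = 0.0436), and the other 3 monocyte markers tested did not pass. Erythroid markers (3 genes) summed to 0 to 47.6 in females on PLX3397, 29.7 to 520 in female controls, 4.39 to 263 in males on PLX3397 and 12.2 to 975 in male controls. Of these Hba-a1 and Hbb-bs were at 0 in all 4 females on PLX3397 and above 0 in all 4 female controls, and Hbb-bs was called lower in females (limma adjusted p = 0.0403). Alas2, the other one listed, leaned the other way without passing (limma log2 fold change 0.48, adjusted p = 0.929). It reached 47.6 in females on PLX3397 and 34.7 in female controls. Of 4 endothelial markers Pecam1 was called lower on PLX3397 in both sexes, at limma log2 fold changes of -1.17 in females and -1.53 in males. Flt1 and Cdh5 did not pass, at -0.37 each in females and at 1.15 and 0.78 in males. Cldn5 was at 0 in all groups but females on PLX3397, where it reached 39.9. Mbp of oligodendrocytes was called higher in both, at 0.86 in females and 1.13 in males. Of 4 astrocyte markers Gfap was called higher on PLX3397 in females, with overlapping groups (limma log2 fold change 5.09, adjusted p = 0.0186). The other 3 did not pass there, and none of the 4 passed in males. No neuron or B cell marker was called in any comparison. Among cells that divide in the adult brain, oligodendrocyte precursor markers summed to 14.2 to 94.3 in females on PLX3397 and 24.4 to 42.6 in female controls. They summed to 12.6 to 160 in males on PLX3397 and 0 to 5.61 in male controls. Of them Sox10 was called higher on PLX3397 in males (limma log2 fold change 4.41, adjusted p = 0.0213), at 9.55 to 51.4 against 0 in all 4 male controls. Olig1 did not pass in males (3.82, limma adjusted p = 0.144), and neither passed in females. Neural progenitor markers summed to at most 21.7 except for 116 in female PLX3397 replicate 2. For scale, the means of single mitosis genes over the 16 libraries ran from 0.31 to 158. The part of these cells in the values of mitosis and replication genes was not tested.

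**Figure D5:**
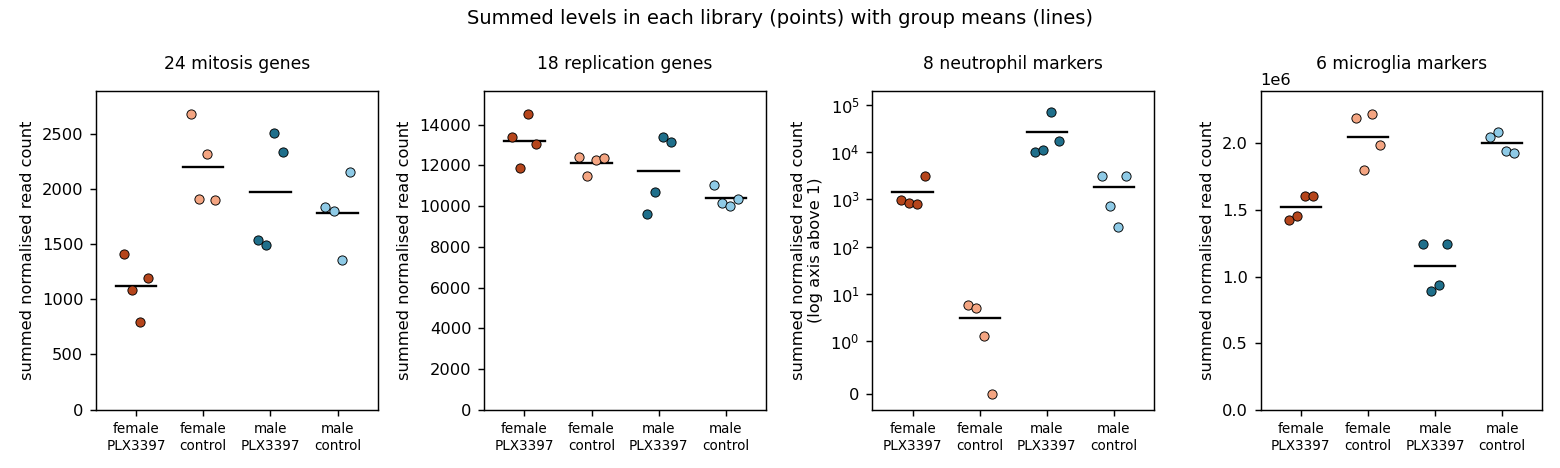
Summed normalised read count per library (y axes) of the 24 mitosis genes, the 18 replication genes, 8 neutrophil markers (log axis above 1) and 6 microglia markers, with 1 point per library and a line at each group mean. Mitosis sums of females on PLX3397 lie between 795 and 1410, below all female controls, and neutrophil sums are highest in males on PLX3397.

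Further genes of the cell cycle were read from 5 lists, in which Ccnd1 was the gene called in both sexes. Their counts stand against 5.34% of all genes called in females and 11.7% in males. Ccnd1, the D-type cyclin that takes up growth factor signals in G1, had 535, 690, 912 and 250 normalised counts in females on PLX3397 and 1820, 1404, 2093 and 1810 in females on control chow. It had 142, 170, 158 and 527 in males on PLX3397 and 2149, 1809, 2424 and 2389 in males on control chow. The groups did not overlap in either sex, and the log2 fold change was -1.71 ± 0.39 in females (limma adjusted p = 0.0136) and -3.36 ± 0.39 in males (2.55e-05), with both calls kept in all 28 alternatives. The other 9 G1 cyclins, kinases and activators listed did not pass in either sex. Of 7 inhibitors of cyclin-dependent kinases, Cdkn1c rose in females (limma log2 fold change 0.68 ± 0.17, adjusted p = 0.0265). That call ended without female PLX3397 replicate 1 or 2 or female control replicate 1, 2 or 4, at adjusted p between 0.0579 and 0.0937. In males limma called 0 of the 7, with 1 at an unadjusted p under 0.05, against 23.8% of all genes.

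Of 16 pocket protein, E2F and DREAM genes tested, E2f3, an activating E2F, and E2f4, a repressive one, fell in males, which is 12.5% and close to the 11.7% of all genes called there. Limma called none of the 16 in females, with 4 at an unadjusted p under 0.05, against 17.1% of all genes. E2f3 had 600, 440, 690 and 541 normalised counts in males on PLX3397 and 1178, 1097, 1214 and 1603 in males on control chow (limma log2 fold change -1.17 ± 0.22, adjusted p = 0.00197). The change of E2f4 was -0.41 ± 0.11 on the log2 scale (limma adjusted p = 0.0258). It ended without male PLX3397 replicate 2 or male control replicate 1 or 2, at adjusted p between 0.0612 and 0.0870, and with equal library totals (0.113). Of 32 further genes of origins and forks, limma called none within either sex, with 3 in females and 5 in males at an unadjusted p under 0.05, against 17.1% and 23.8% of all genes at that threshold. Pold2, a polymerase delta subunit, and Rpa1, the single-strand binding protein, were higher in females than males on PLX3397 (limma log2 fold change 0.55 and 0.70, adjusted p = 0.0456 and 0.0320), which is 6.25% of the list against 5.43% of all genes. Both calls ended with equal library totals (adjusted p = 0.216 for Pold2 and 0.110 for Rpa1), which moved the median of all genes in this comparison by -0.20. The call of Rpa1 also ended without any 1 female library on PLX3397 or male PLX3397 replicate 2 or 4 (up to 0.107), and that of Pold2 without any 1 library other than male control replicate 2 and female control replicate 3 (up to 0.134).

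Of 22 kinetochore, checkpoint and condensin genes, limma called none in females, with 4 at an unadjusted p under 0.05 against 17.1% of all genes, and 3 in males, which is 13.6% against 11.7% of all genes. Cenpa, the centromeric histone, rose in males to 642, 449, 914 and 655 normalised counts on PLX3397, against 179, 274, 156 and 248 on control chow (limma log2 fold change 1.62 ± 0.31, adjusted p = 0.00223). Fzr1, an activator of the anaphase-promoting complex in G1, fell in males (limma log2 fold change -0.61 ± 0.12, adjusted p = 0.00251), and Ncaph, a condensin subunit, fell as well (-0.88 ± 0.25, adjusted p = 0.0324). The call of Ncaph ended without any 1 male library other than PLX3397 replicate 3, at adjusted p up to 0.0965. Between females and males on PLX3397, Fzr1 and Pttg1, the securin, were higher in females (limma log2 fold change 0.55 and 0.33, adjusted p = 0.0162 and 0.0459) and Spc24, a kinetochore protein, was lower (-0.97, adjusted p = 0.0429), which is 13.6% of the list against 5.43% of all genes. The call of Fzr1 ended without male PLX3397 replicate 2 or 3 (adjusted p = 0.0584 and 0.0533). That of Pttg1 ended without any 1 library other than male PLX3397 replicate 4 and female control replicate 2 (up to 0.126) and with equal library totals (0.448). That of Spc24 ended without any 1 library other than female PLX3397 replicate 1 and female control replicates 2 and 3 (up to 0.118). No gene of the 5 lists passed the limma test of the difference between responses.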

How the data were processed

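Per the labels' protocols, 500 pg of total RNA from sorted cortical microglia was amplified with a low-input SMARTer kit, and Nextera XT libraries were made from 150 pg of cDNA. The deposited table holds a normalised signal, named as normalised counts, in which the size of 1 read differs between libraries. The submitters' processing notes name the tools STAR 2.7.9a, Salmon 1.5.2, Subread with featureCounts 2.0.1, and bcl2fastq 2.19.1, and the build GRCm39, without saying what each did. The normalisation formula and whether counting used strand are not given in the sources used here. Whole reads could not be recovered for each gene, so count models and counting intervals were not used, and depth is an estimate from the most frequent low value.

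All 16 libraries in 4 groups were used. The 19594 genes that reached 10 in 4 or more libraries were fitted with limma 3.58.1 (R 4.3.3) on log2(value + 1), using 1 mean per group, a trend on intensity, two-sided tests and Benjamini-Hochberg adjustment over all genes tested. A gene is called at an adjusted p under 0.05. Fold changes are on that scale, which understates the change of low genes. The 5 comparisons set PLX3397 against control chow within females and within males, and covered the difference between these responses, and females minus males on each chow. Same-numbered libraries of different groups did not deviate together on average. Symbols came from an Ensembl-based table for 51029 of 53850 identifiers, and lengths and promoters from mouse annotation of another build than GRCm39.

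The members, gene lists and alternatives were chosen with earlier results of these data known. Members were named with values if called in any comparison, if 2 groups did not overlap and the higher mean was at least 20, or if among the 3 most abundant of their class. Alternatives were pseudocounts of 0.5 and 5, no filter, a filter of at least 50, equal library totals, upper-quartile or quantile scaling, array weights, voom weights, only the compared groups in the fit, the replicate number as a block, and leaving out each library or both doubted libraries. The fit was tested on simulated data. Tables and figures were made with Python 3.11.15, pandas 2.3.3 and matplotlib 3.10.9.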

Additional observations from a re-analysis of the deposited data

Results flagged for a closer look

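Each group of 4 libraries was searched for 1 value set apart from the other 3, over 68 groups of 17 members, and 4 groups met that rule, where chance alone gives about 1 in 20. Cdt1 was 1017 normalised counts in male PLX3397 replicate 4, against 686 to 733 in the other 3 males on PLX3397. In the other 3 cases the remaining females on PLX3397 were all at 0, so that any value above 0 meets the rule. These were Mki67 at 4.37 in female PLX3397 replicate 2 (about 2.3 reads), and Plk1 at 1.03 and Rrm2 at 1.96 in female PLX3397 replicate 4 (about 1.0 and 1.9 reads), all under 3 reads.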

How the results depend on the processing

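Among 28 alternatives, no fold change of a named gene that was called turned its direction. In females, the 4 members called became 2 (Ccnb2 and Plk1) with no filter on low values, 2 with array weights, and 0 with voom weights, under which 8 had an unadjusted p under 0.05. Leaving out each library gave 2 to 4 members in females, 0 to 0 in males, 0 to 1 for the difference between responses, 0 to 0 between the sexes on control chow and 2 to 4 between the sexes on PLX3397. Equal library totals called 1 member (Cdt1) in males. The difference between responses called 1 member (Plk1) without male control replicate 4, and 1 without that library and male PLX3397 replicate 3 together. Between females and males on PLX3397, voom weights called 0 members, with 11 at an unadjusted p under 0.05. The cause of these shifts was not tested. Of the counts of members under alternatives, 126 stayed within 1.5 times the reported count and 13 did not. Of the values of single named genes, 663 kept their side of the threshold, 143 lost it and 6 gained it.

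Same-numbered libraries correlated by 0.0025 on average over 24 pairs (-0.045 to 0.12). Libraries with different numbers correlated by -0.00074 on average over 72 pairs (-0.070 to 0.049). A correlation over 0.1 was seen in 1 same-numbered pair and in 0 of the others. The numbers were not used to pair the samples, and a link between single pairs was not tested. A fit with the replicate number as a block called 2 members in females (Ccnb2 and Plk1), 0 in males, 0 for the difference between responses, 0 on control chow and 3 between the sexes on PLX3397. The difference between responses could not be fitted with the groups compared alone. Equal library totals moved the median of all genes by 0.16 in males, -0.16 for the difference between responses and -0.20 between the sexes on PLX3397, and upper-quartile scaling moved the last 2 by -0.10 and -0.15. Of the 24 mitosis genes, 12 were at 0 in at least 1 library, and the median spread within groups was larger over the mitosis genes tested than over all genes.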
